A study of Mus musculus with 6 samples.

Results

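Genes that run mitosis and pull sister chromosomes apart were examined in the mouse lateral ganglionic eminence (LGE), the part of the embryonic ventral forebrain that gives rise to striatal neurons. The set held 42 genes chosen by name for their textbook roles, with earlier results of these data known. They encode G2/M kinases and cyclins, checkpoint and kinetochore proteins, spindle and cytokinesis proteins, and chromosome structure proteins. All 42 were found by exact gene name in the deposited table of 29659 genes, and all 42 passed the filter on low counts, as did 16551 genes in all. LGE RNA was taken at embryonic day 16.5 from C57BL/6 mice and sequenced as 3 Zfhx3-CKO libraries and 3 control libraries. The Zfhx3-CKO genotype was Dlx5/6-Cre; Zfhx3F/F, in which Cre recombinase removes a floxed part of Zfhx3, a gene for a homeodomain and zinc finger transcription factor, in cells of the ganglionic eminences. The control genotype was given as Dlx5/6-Cre alone, so the Cre transgene was present in both groups, and the Zfhx3 allele of the controls was not stated in the labels. Cells in which the Dlx5/6 driver is not active keep Zfhx3 in such a model, and the tissue was measured in bulk. The labels do not say whether the libraries came from separate or pooled animals, so the p-values measure only how far these libraries scatter, and that scatter may be technical.

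A dividing cell enters mitosis when cyclin B and Cdk1 become active, condenses its chromosomes, attaches them to spindle microtubules through kinetochores, and separates the sister chromatids once the spindle checkpoint releases the anaphase-promoting complex (APC/C). A midzone of microtubules and an actin ring then split the cell. Transcripts of most of these genes accumulate in G2 and M, and in the embryonic forebrain they mark cycling cells of the ventricular and subventricular zones, not neurons. Their promoters are known to carry the cell cycle genes homology region, which is bound by the MuvB complex with B-Myb and Foxm1, and CCAAT boxes, which are bound by NF-Y.

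The promoters of 6 genes are shown because these are the genes that passed the test in the Zfhx3-CKO comparison described further on and have an entry in the RefSeq promoter table (build GRCm38.p6). Each runs 5′ to 3′ from 250 bases before to 50 bases after the annotated start. Capitals mark the letters of the homology region and of the CCAAT box. The main form of the homology region is TTTGAA, and the variants searched were the form TTTAAA, the form TTCGAA and the form CTTGAA. Matches on the other strand appear reversed, so that a printed TTCAAA stands for the main form and a printed ATTGG for a CCAAT box. The Mki67 window is chr7:135716330-135716629 on the minus strand, that of Cenpf chr1:189688037-189688336 on the minus strand, and that of Kif23 chr9:61946750-61947049 on the minus strand. The Hmgb2 window is chr8:57511593-57511892 on the plus strand, that of Bub1b chr2:118597961-118598260 on the plus strand, and that of Top2a chr11:99024140-99024439 on the minus strand.
Mki67: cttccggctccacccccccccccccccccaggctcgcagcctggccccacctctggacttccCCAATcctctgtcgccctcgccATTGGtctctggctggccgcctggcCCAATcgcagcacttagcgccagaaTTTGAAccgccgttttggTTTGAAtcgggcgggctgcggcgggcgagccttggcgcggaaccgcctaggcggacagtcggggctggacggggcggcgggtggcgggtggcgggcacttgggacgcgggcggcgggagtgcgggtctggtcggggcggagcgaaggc
Cenpf: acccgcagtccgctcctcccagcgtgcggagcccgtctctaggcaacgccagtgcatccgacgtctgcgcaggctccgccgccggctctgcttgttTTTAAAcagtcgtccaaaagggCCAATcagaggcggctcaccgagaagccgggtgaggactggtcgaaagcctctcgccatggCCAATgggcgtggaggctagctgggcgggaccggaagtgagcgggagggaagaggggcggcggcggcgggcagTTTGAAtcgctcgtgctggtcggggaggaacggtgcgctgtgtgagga
Kif23: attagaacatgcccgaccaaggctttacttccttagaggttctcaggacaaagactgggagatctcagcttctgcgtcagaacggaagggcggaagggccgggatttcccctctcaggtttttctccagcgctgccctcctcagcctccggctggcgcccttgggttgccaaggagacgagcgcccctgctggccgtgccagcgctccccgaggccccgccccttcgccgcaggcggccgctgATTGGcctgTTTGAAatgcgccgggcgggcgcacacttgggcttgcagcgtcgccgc
Hmgb2: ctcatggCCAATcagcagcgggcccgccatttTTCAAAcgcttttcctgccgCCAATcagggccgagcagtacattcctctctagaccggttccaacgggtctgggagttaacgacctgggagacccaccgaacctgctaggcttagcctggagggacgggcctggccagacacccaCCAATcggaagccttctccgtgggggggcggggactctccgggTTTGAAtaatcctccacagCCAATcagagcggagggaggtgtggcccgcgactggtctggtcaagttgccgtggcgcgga
Bub1b: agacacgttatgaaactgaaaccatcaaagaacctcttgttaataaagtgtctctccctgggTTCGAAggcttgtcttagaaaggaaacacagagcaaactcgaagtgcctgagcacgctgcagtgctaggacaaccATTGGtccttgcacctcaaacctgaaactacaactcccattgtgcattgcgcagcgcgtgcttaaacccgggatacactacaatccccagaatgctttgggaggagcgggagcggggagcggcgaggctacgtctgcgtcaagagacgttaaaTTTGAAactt
Top2a: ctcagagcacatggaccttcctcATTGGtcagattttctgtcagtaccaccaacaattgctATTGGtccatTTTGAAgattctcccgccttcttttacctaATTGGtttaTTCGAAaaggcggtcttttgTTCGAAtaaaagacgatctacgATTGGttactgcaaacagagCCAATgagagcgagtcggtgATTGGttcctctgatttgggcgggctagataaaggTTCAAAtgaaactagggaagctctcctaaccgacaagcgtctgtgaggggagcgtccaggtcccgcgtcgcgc

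These letters were common in the set. The promoter table held 32851 promoters of 27025 gene symbols, and the first one listed for each symbol was used. These 27025 are called all promoters here. Of the 34 genes with a promoter entry, 31 (91.2%) held letters of the homology region on either strand. The share was 27.6% for the promoters of 11272 tested genes and 37.6% for all promoters. The form TTTGAA alone was found in 26 of the 34 (76.5%), against 11.5% of tested genes and 18.1% of all promoters. CCAAT letters were found in 25 of the 34 (73.5%), against 38.4% of tested genes and 37.9% of all promoters, and both kinds of letters together also in 25, against 11.4% of tested genes and 14.8% of all promoters. In 28 of the 34 (82.4%) a homology region match began between 50 bases before and 50 bases after the start, as in Cenpf, Kif23 and Bub1b above, against 7.63% of tested genes and 11.97% of all promoters. Nuf2, Nusap1 and Mad2l1 had no homology region letters in this window. In the 34 windows, 1 pair of matches overlapped each other. A match is a description of these letters only. The median GC content of the windows was 59% in the set, 61% in tested genes and 52.7% in all promoters.

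The libraries held 18960574 to 20311799 counts in the Zfhx3-CKO group and 15938590 to 16753355 in the control group. Zfhx3 itself had 98.7, 87.3 and 99.3 CPM (counts scaled to a common library total) in Zfhx3-CKO libraries 1, 2 and 3, against 134, 135 and 101 CPM in control libraries 1, 2 and 3, and the Zfhx3-CKO mean was 77.3% of the control mean. The groups did not overlap, but the difference did not pass the test (log2 fold change -0.37, SE 0.12, adjusted p 0.0911 by edgeR's quasi-likelihood test), and the exact two-sided permutation p was 0.1, the smallest that 3 against 3 allows. The deleted exons are not given in the labels, so counts over the whole gene check the genotype only in part. All 3 Zfhx3-CKO libraries expressed Xist and all 3 control libraries the Y-linked genes, so genotype and sex cannot be told apart in any comparison made here. In every library Dlx1, from the progenitor list, stood at 725 to 901 CPM and Meis2, from the striatal neuron list, at 824 to 908 CPM. These genes alone do not show that the dissections matched. Of 17 striatal neuron markers 9 fell and 3 rose in the Zfhx3-CKO libraries, with a median log2 fold change of -0.50. Of 7 medial ganglionic eminence markers 3 rose. Over all tested genes 3.87% rose and 3.48% fell. Zfhx3-CKO libraries 1 and 3 stood apart in a list of cortical excitatory neuron genes, whose median log2 CPM lay 1.45 and 1.66 above the control mean, against 0.09 in Zfhx3-CKO library 2.

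The estimates for the mitosis genes all pointed upward in the Zfhx3-CKO libraries, by small amounts. All 42 had a positive log2 fold change, where 50.1% of the tested genes did, and fold changes ran from 1.05 (Ect2) to 1.53 (Mki67). By edgeR's quasi-likelihood test with Benjamini-Hochberg adjustment over all tested genes, 8 of the 42 rose (Mki67, Hmgb2, Top2a, Kif23, Kif20a, Incenp, Cenpf and Bub1b), 0 fell and 34 did not pass. Over all tested genes the shares were 3.87% higher and 3.48% lower. At an unadjusted p under 0.05, 27 of the 42 were higher, against 13.5% of tested genes. The median log2 fold change was 0.29 over the 42 genes and 0.0012 over all tested genes. In bulk tissue, more cells in mitosis and more of these RNAs per cell cannot be told apart.

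The Zfhx3-CKO libraries differed in how far they stood from the controls. Summed over the 42 genes, the level was 6916, 7719 and 5841 CPM in Zfhx3-CKO libraries 1, 2 and 3, against 5111, 5423 and 5457 CPM in control libraries 1, 2 and 3. The ratio of the group means was 1.28, and the 42 genes took 0.696%, 0.770% and 0.580% of all counts in the Zfhx3-CKO libraries, against 0.511%, 0.540% and 0.550% in the control libraries. All 3 Zfhx3-CKO libraries were thus above all 3 control libraries in the sum. Gene by gene, this separation held for 19 of the 42, against 15.5% of tested genes. Zfhx3-CKO library 2 was above every control library in 42 of the 42 genes (34.7% of tested genes) and was the highest of its group in each. Zfhx3-CKO library 1 was above every control library in 40 (33.8% of tested genes), with Kif11 and Cdc25c the lowest 2 relative to the control mean. Zfhx3-CKO library 3 was above every control library in 20 (34.4% of tested genes), lay below the control mean in 13 and below every control library in 3. It was the lowest of its group for 40 genes. The median over the 42 genes of log2 CPM minus the control mean was 0.33, 0.49 and 0.09 in Zfhx3-CKO libraries 1, 2 and 3, against -0.07, 0.01 and 0.07 in control libraries 1, 2 and 3. Control library 1 was the lowest of its group for 32 genes. The typical spread between libraries, as the median SD of log2 CPM, was 0.22 in the Zfhx3-CKO group and 0.096 in the control group over the 42 genes, and 0.15 in the Zfhx3-CKO group and 0.12 in the control group over all tested genes.

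**Figure D1:**
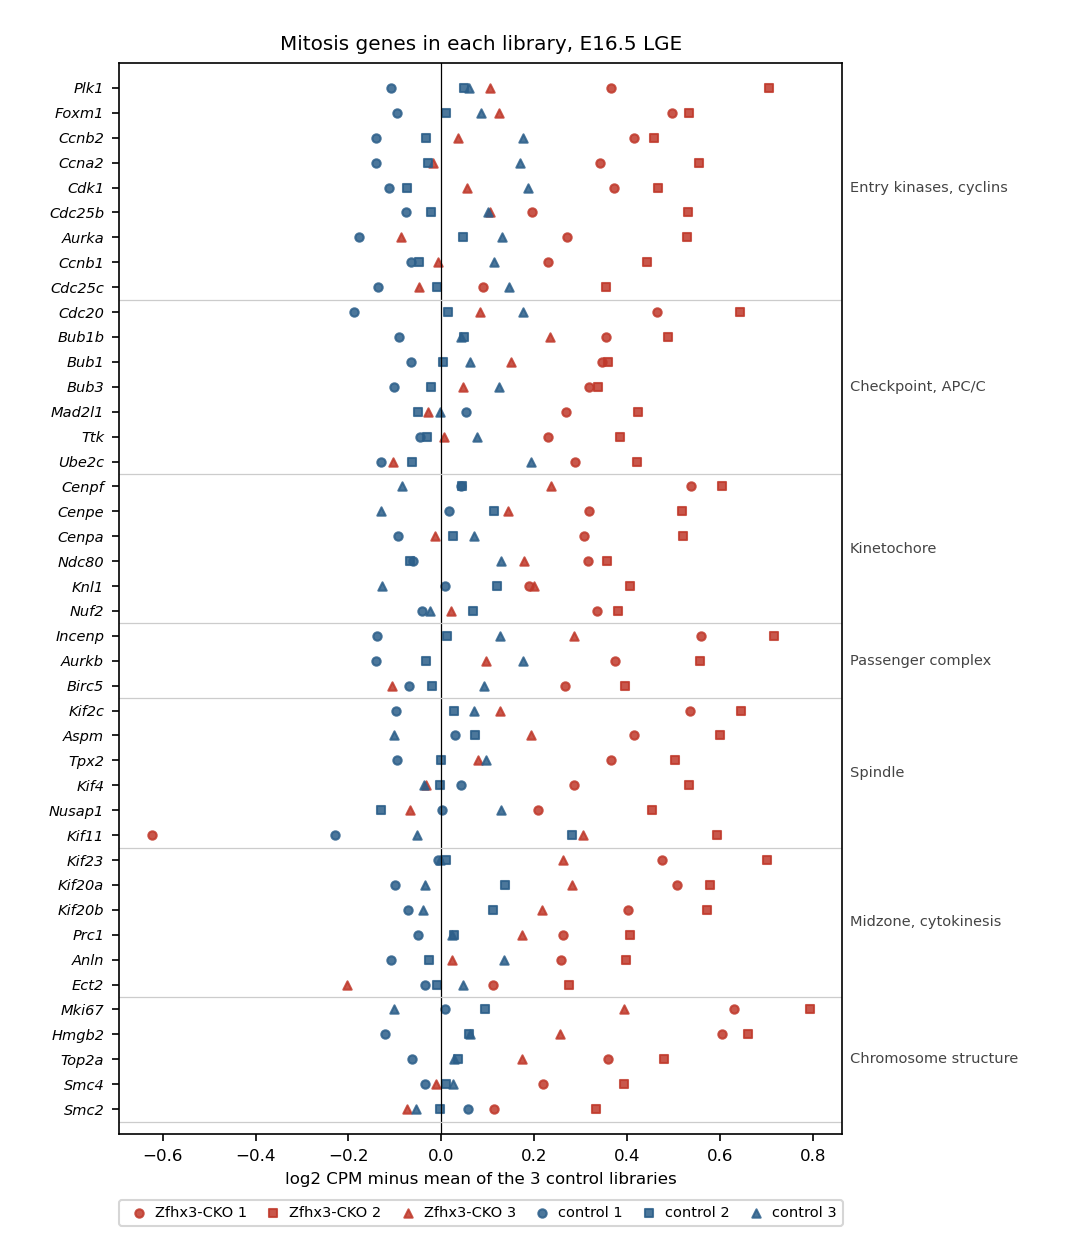
Each of the 42 mitosis genes in each library, as log2 CPM minus the mean of the 3 control libraries (x axis), grouped by role and ordered by fold change within a role (y axis); red symbols are Zfhx3-CKO libraries, blue symbols control libraries. The Zfhx3-CKO library 2 squares lie right of all control symbols in 42 of 42 genes, while the Zfhx3-CKO library 3 triangles do so in 20.

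Counts by role, given next, rest on 3 to 9 genes each. Over all tested genes 3.87% were called higher, and in 15.5% every Zfhx3-CKO library exceeded every control library. Of 5 chromosome structure genes 3 rose and 2 did not pass, and the median log2 fold change was 0.34. Mki67, whose protein coats mitotic chromosomes and is the standard marker of cycling cells, had 802, 897 and 680.5 CPM in Zfhx3-CKO libraries 1, 2 and 3, against 521, 553 and 482 CPM in control libraries 1, 2 and 3 (log2 fold change 0.61, SE 0.10, adjusted p 0.0124). Every Zfhx3-CKO library exceeded every control library for Mki67, library 3 included. Hmgb2, a chromatin protein that bends DNA, had 513, 533 and 403 CPM in the Zfhx3-CKO libraries, against 310.0, 352 and 352 CPM in the controls (log2 fold change 0.52, SE 0.11, adjusted p 0.0298). Top2a, the topoisomerase that untangles sister chromatids, had 799, 869 and 703 CPM in the Zfhx3-CKO libraries, against 596, 639 and 635 CPM in the controls (log2 fold change 0.34, SE 0.0852, adjusted p 0.0477). The groups did not overlap for either gene. The core condensin subunit genes Smc4 and Smc2 did not pass. Smc4 had 284, 321 and 242 CPM in the Zfhx3-CKO libraries, against 238, 246 and 249 CPM in the controls (log2 fold change 0.21, SE 0.0985, adjusted p 0.223). Smc2 had 187, 217 and 164 CPM in the Zfhx3-CKO libraries, against 179.6, 172 and 166 CPM in the controls (log2 fold change 0.13, SE 0.10, adjusted p 0.448). For both condensin genes Zfhx3-CKO library 3 lay among or below the controls.

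Of the 6 midzone and cytokinesis genes, 2 rose and 4 did not pass, with a median log2 fold change of 0.34. Kif23, the motor of the centralspindlin complex that bundles midzone microtubules, had 129, 151 and 111 CPM in the Zfhx3-CKO libraries, against 92.2, 93.4 and 92.5 CPM in the controls (log2 fold change 0.49, SE 0.11, adjusted p 0.0296). The Kif23 control libraries lay close together and all below the Zfhx3-CKO libraries. Kif20a, a midzone motor needed to relocate the passenger complex in anaphase, had 79.9, 84.0 and 68.2 CPM in the Zfhx3-CKO libraries, against 52.3, 61.7 and 54.7 CPM in the controls (log2 fold change 0.46, SE 0.0999, adjusted p 0.0308). Exons of Kif20a overlap those of Cdc23 on the opposite strand by 1271 bases, and the library kit does not mark strand, so their reads cannot be fully separated. Cdc23 averaged 155 CPM in the Zfhx3-CKO libraries and 159 CPM in the control libraries. Such an exon overlap with another annotated gene also applies to Top2a (a snoRNA gene), Prc1, Foxm1, Plk1, Cdc20, Ccna2, Cdc25b, Cdc25c, Kif4, Nusap1 and Ube2c, 12 of the 42 in all. Kif20b, a related cytokinesis motor, had 71.6, 80.6 and 62.9 CPM in the Zfhx3-CKO libraries, against 51.4, 58.4 and 52.6 CPM in the controls (log2 fold change 0.41, SE 0.10, adjusted p 0.0502). Prc1, which crosslinks midzone microtubules, had 130.2, 144 and 123 CPM in the Zfhx3-CKO libraries, against 105, 111 and 110.2 CPM in the controls (log2 fold change 0.28, SE 0.0760, adjusted p 0.0578). The groups did not overlap for Kif20b or Prc1, though neither passed. Anln, an actin ring scaffold (log2 fold change 0.23, SE 0.11, adjusted p 0.219), and Ect2, which activates RhoA at the division plane (log2 fold change 0.07, SE 0.11, adjusted p 0.730), had overlapping groups. Ect2 was the lowest of the 42 in Zfhx3-CKO library 3, 0.20 below the control mean on the log2 scale.

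In the chromosomal passenger complex, which corrects faulty attachments and later guides cytokinesis, 1 of 3 genes rose. Incenp, the scaffold subunit, had 153, 170.3 and 126 CPM in the Zfhx3-CKO libraries, against 94.0, 104 and 113 CPM in the controls (log2 fold change 0.53, SE 0.12, adjusted p 0.0323), with no overlap between the groups. Aurkb, its kinase, had 88.4, 100.4 and 72.8 CPM in the Zfhx3-CKO libraries, against 61.7, 66.5 and 77.0 CPM in the controls (log2 fold change 0.35, SE 0.13, adjusted p 0.130). Birc5, which encodes survivin, had 75.6, 82.7 and 58.3 CPM in the Zfhx3-CKO libraries, against 59.8, 61.8 and 66.9 CPM in the controls (log2 fold change 0.20, SE 0.12, adjusted p 0.348). For Aurkb and Birc5 library 3 of the Zfhx3-CKO group fell within or below the control range, and neither gene passed.

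Among 6 kinetochore genes, 1 rose and 5 did not pass, with a median log2 fold change of 0.29. The groups did not overlap for 4 of them, where 15.5% of tested genes had all Zfhx3-CKO libraries above all controls. Cenpf, a large outer kinetochore protein, had 275, 288 and 223 CPM in the Zfhx3-CKO libraries, against 195, 195 and 179 CPM in the controls (log2 fold change 0.47, SE 0.0998, adjusted p 0.0294). All 3 Zfhx3-CKO libraries were above all 3 controls. Cenpe, the kinetochore motor that aligns chromosomes, had 161, 185 and 143 CPM in the Zfhx3-CKO libraries, against 131, 139.8 and 118 CPM in the controls (log2 fold change 0.33, SE 0.11, adjusted p 0.0936). Ndc80, the microtubule-binding subunit of the complex of the same name, had 44.3, 45.5 and 40.2 CPM in the Zfhx3-CKO libraries, against 34.0, 33.8 and 38.9 CPM in the controls (log2 fold change 0.28, SE 0.0926, adjusted p 0.0988). Separation without a passed test was thus seen for Cenpe and Ndc80. The scaffold gene Knl1 again had no overlap (log2 fold change 0.27, SE 0.0911, adjusted p 0.112). The centromeric histone gene Cenpa (0.29, adjusted p 0.195) and the Ndc80 partner gene Nuf2 (0.26, adjusted p 0.162) had overlapping groups.

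Of 7 spindle checkpoint and APC/C genes, 1 rose and 6 did not pass, with a median log2 fold change of 0.24. Bub1b, which encodes the checkpoint protein BubR1, had 121, 132 and 111 CPM in the Zfhx3-CKO libraries, against 88.3, 97.4 and 97.0 CPM in the controls (log2 fold change 0.36, SE 0.0830, adjusted p 0.0370). Bub1, the checkpoint kinase at kinetochores, had 103, 104 and 90.3 CPM in the Zfhx3-CKO libraries, against 77.7, 81.5 and 84.9 CPM in the controls (log2 fold change 0.29, SE 0.0789, adjusted p 0.0616). Neither gene had overlapping groups. Cdc20, the APC/C activator held by the checkpoint, had 138, 157 and 106 CPM in the Zfhx3-CKO libraries, against 87.8, 101 and 113 CPM in the controls (log2 fold change 0.41, SE 0.15, adjusted p 0.124), and its library 3 value lay between those of control libraries 2 and 3. The remaining 4, the checkpoint genes Bub3, Mad2l1 and Ttk and the APC/C ubiquitin-conjugating enzyme gene Ube2c, had log2 fold changes of 0.24, 0.23, 0.22 and 0.21 with overlapping groups.

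Among 6 spindle genes 0 rose, and the median log2 fold change was 0.30. At an unadjusted p under 0.05 by edgeR, 3 of the 6 were higher, against 13.5% of tested genes. Aspm, a spindle pole protein whose loss causes microcephaly, had 216, 246 and 185 CPM in the Zfhx3-CKO libraries, against 165, 170.2 and 151 CPM in the controls (log2 fold change 0.41, SE 0.11, adjusted p 0.0519). Kif2c, a microtubule-depolymerising kinesin of the centromere, had 103, 111 and 77.1 CPM in the Zfhx3-CKO libraries, against 65.9, 71.9 and 74.2 CPM in the controls (log2 fold change 0.45, SE 0.13, adjusted p 0.0669). The groups did not overlap for either, and both missed the threshold narrowly. The spindle assembly factor gene Tpx2, the chromokinesin gene Kif4 on the X chromosome and the microtubule binder gene Nusap1 had log2 fold changes of 0.32, 0.28 and 0.21. Kif11, the motor that pushes spindle poles apart, had the widest spread of the 42 in the Zfhx3-CKO group. It had 49.4, 115 and 94.5 CPM in the Zfhx3-CKO libraries, against 65.1, 93.0 and 73.7 CPM in the controls (log2 fold change 0.16, SE 0.27, adjusted p 0.755). Zfhx3-CKO library 1 held the lowest Kif11 level of all 6 libraries and library 2 the highest, although both stood above the controls for nearly all other members. The SD of its log2 CPM was 0.64 in the Zfhx3-CKO group and 0.26 in the control group, at percentile 96.8 and 83.5 of all tested genes; the next largest in the Zfhx3-CKO group was 0.31, for Aurka.

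Of 9 genes of mitotic entry 0 rose, and the median log2 fold change was 0.30. At an unadjusted p under 0.05 by edgeR, 5 of the 9 were higher, against 13.5% of tested genes. Foxm1, the transcription factor that drives many of the other genes, had 240.1, 246 and 185 CPM in the Zfhx3-CKO libraries, against 159, 171 and 180.4 CPM in the controls (log2 fold change 0.39, SE 0.11, adjusted p 0.0672). Plk1, the kinase that promotes entry and spindle assembly, had 70.9, 89.9 and 59.1 CPM in the Zfhx3-CKO libraries, against 51.0, 56.9 and 57.3 CPM in the controls (log2 fold change 0.41, SE 0.14, adjusted p 0.111). Every Zfhx3-CKO library exceeded every control library for both, with library 3 only just above the highest control. The same narrow separation held for Cdc25b, a phosphatase that activates Cdk1 (0.29, adjusted p 0.160). The other 6 had overlapping groups. Their log2 fold changes were 0.31 for Ccnb2, 0.23 for Ccnb1 and 0.31 for Ccna2, the mitotic cyclin genes, and 0.30 for Cdk1, their kinase. The spindle pole kinase gene Aurka was at 0.26 and the phosphatase gene Cdc25c at 0.14.

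**Figure D2:**
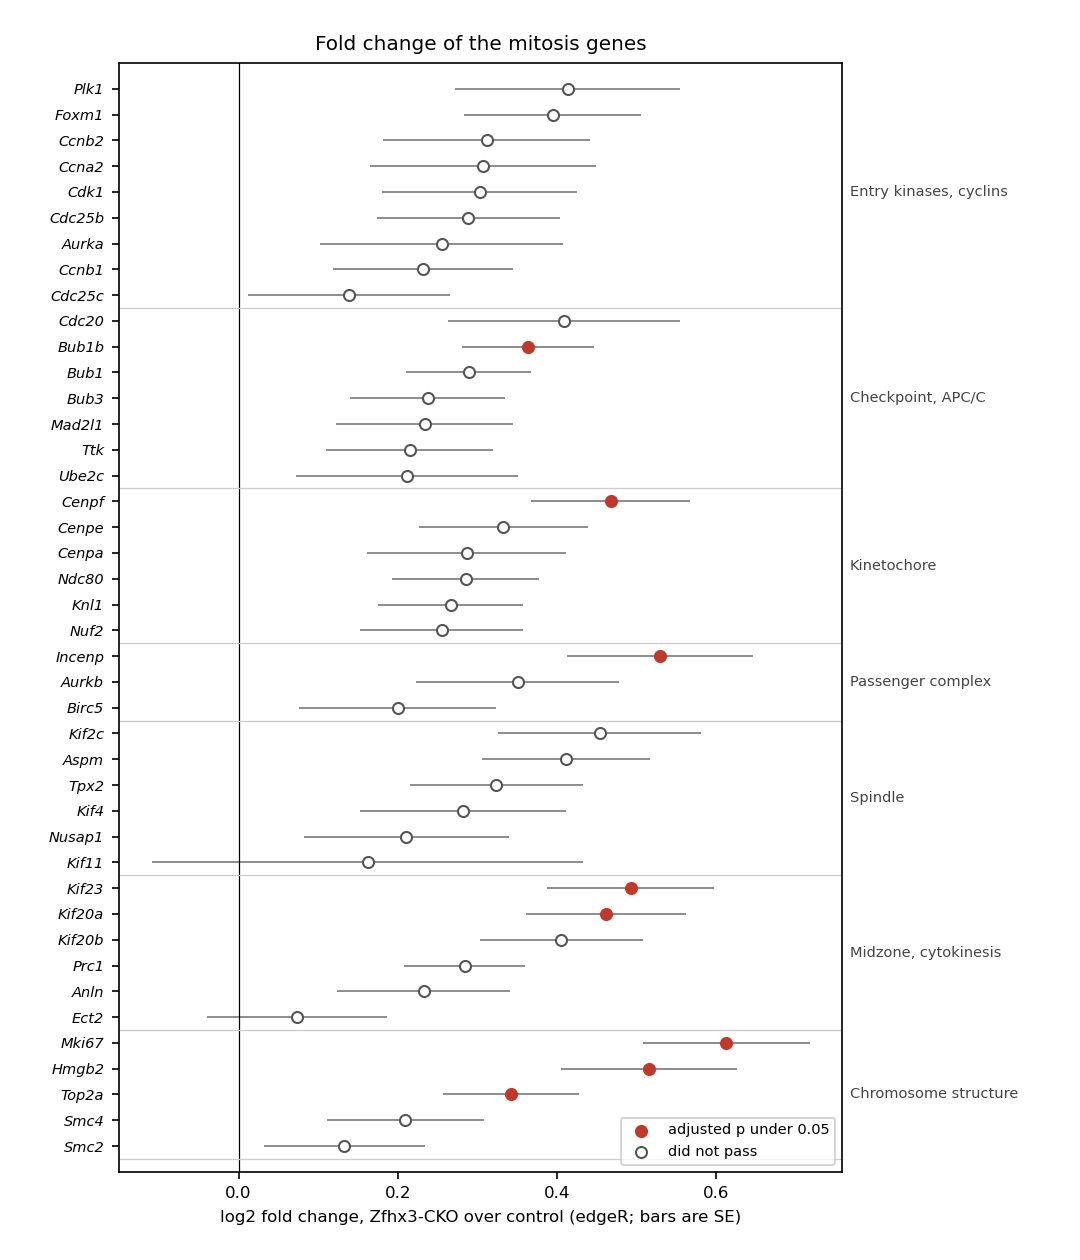
Log2 fold change of each mitosis gene, Zfhx3-CKO over control, with its standard error (x axis), by gene and role (y axis); filled points passed an adjusted p of 0.05 and open points did not. All 42 estimates lie above 0, from 0.07 for Ect2 to 0.61 for Mki67, and 8 are filled.

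Per transcript length, in the deposited FPKM values, the 42 genes differed widely in level. Hmgb2 stood highest, at 161 ± 24.0 FPKM in the Zfhx3-CKO libraries and 113 ± 8.21 FPKM in the control libraries (SD, n = 3 each). It was followed by Top2a at 87.6 ± 9.52 FPKM in the Zfhx3-CKO libraries and 69.3 ± 2.70 FPKM in the control libraries, and by Mki67 at 78.7 ± 11.0 FPKM in the Zfhx3-CKO libraries and 51.6 ± 3.19 FPKM in the control libraries. Thus 3 of the 8 genes that rose were also the most abundant by mean FPKM. At the low end, Mad2l1 was at 9.61 ± 1.53 FPKM in the Zfhx3-CKO libraries and 8.19 ± 0.312 FPKM in the control libraries, and Anln at 8.39 ± 1.11 FPKM in the Zfhx3-CKO libraries and 7.16 ± 0.662 FPKM in the control libraries. Top2a and Mki67 lay within their SDs of each other in the Zfhx3-CKO libraries but not in the control libraries.

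**Figure D3:**
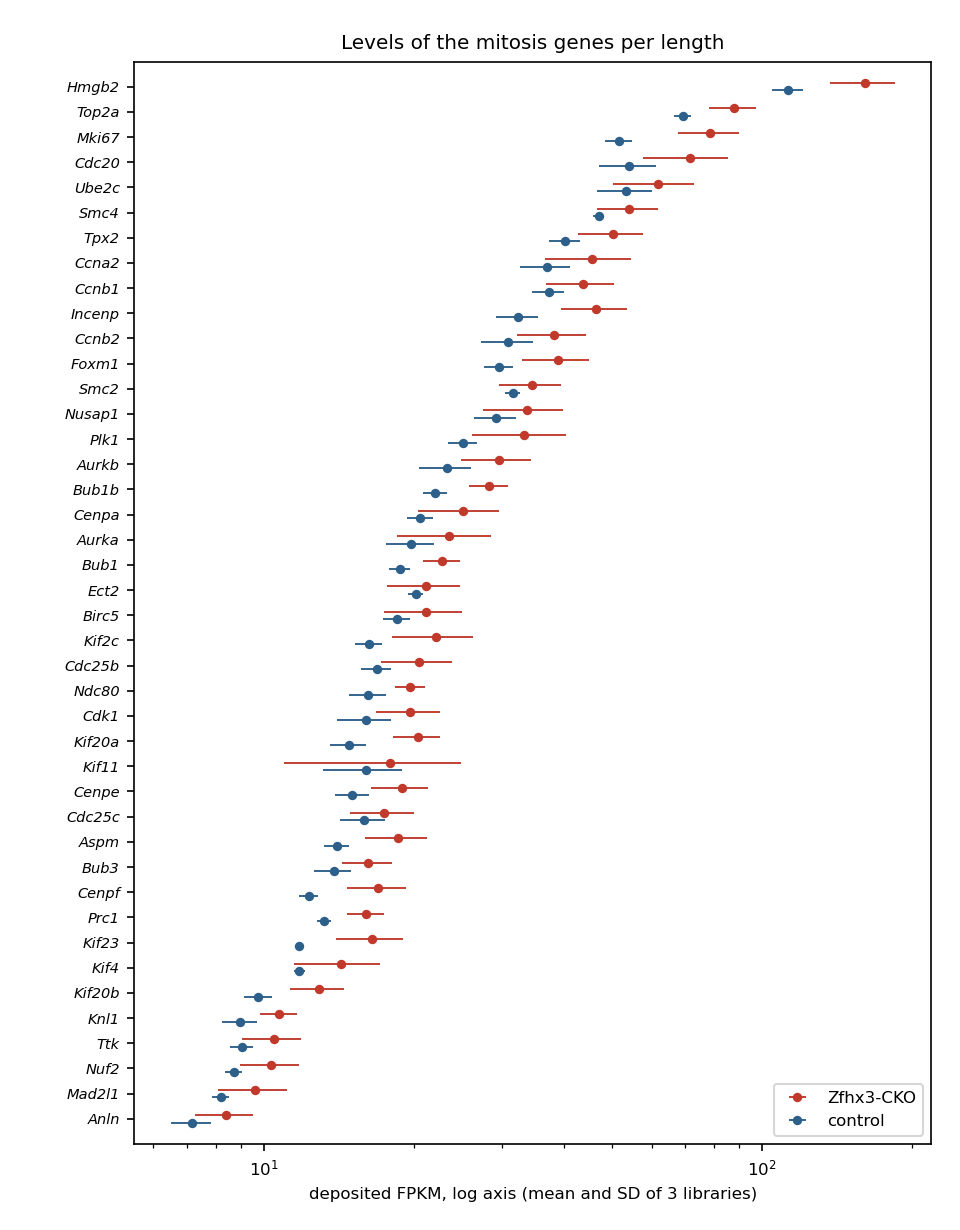
Mean deposited FPKM of each mitosis gene in the Zfhx3-CKO group (red) and the control group (blue) on a log axis (x axis), with bars for the SD of 3 libraries and genes ordered by their mean over the 6 libraries (y axis). Hmgb2 stands at the top and Anln at the bottom, and the span from gene to gene is far wider than the gap between groups within a gene.

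The number of genes that passed depended on single libraries. Without Zfhx3-CKO library 3, 34 of the 42 rose, where 6.47% of tested genes did. Without Zfhx3-CKO library 1 none passed (0 of 42, 1.32% of tested genes; 21 at an unadjusted p under 0.05), and with Zfhx3-CKO library 2 left out, 6 rose (5.11%). Without control library 1 none passed (0 of 42, 0.927%, with 17 at an unadjusted p under 0.05). Mki67 alone passed without control library 2 (0.913%) and without control library 3 (2.43%). The share of tested genes at an unadjusted p was not counted for the fits without Zfhx3-CKO library 1 or control library 1. With Zfhx3-CKO library 2 as the only one of its genotype, 34 rose (4.97%); there the lone library is assumed to vary like the controls. The median log2 fold change stayed positive under these choices, from 0.22 without Zfhx3-CKO library 2 to 0.49 with that library alone. DESeq2 called 15 of the 42 higher (5.75% of tested genes), a fit with replicate number as a block called Mki67 only (1.06%), and removal of GC and length trends gave 11 (3.93%), with Cenpf no longer among them. With no low-count filter 18 rose (3.62% of tested genes). By limma-trend on log2(FPKM + 1), 2 rose, which is 4.76% of the 42 against 3.33% of tested genes, and on log2(FPKM + 0.1) 1 rose, which is 2.38% of the 42 against 3.12% of tested genes. Both FPKM shares lie near those of all tested genes. Each of the 8 genes thus lost its call without Zfhx3-CKO library 1 or control library 1. Over all alternatives the highest adjusted p was 0.0735 for Mki67, 0.111 for Cenpf, 0.121 for Kif23, 0.131 for Hmgb2, 0.132 for Kif20a, 0.137 for Incenp, 0.147 for Bub1b and 0.177 for Top2a. In the authors' deposited table, 17 of the 42 had an adjusted p under 0.05 and a positive log2 fold change, against 6.87% of the genes with an adjusted p there.

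**Figure D4:**
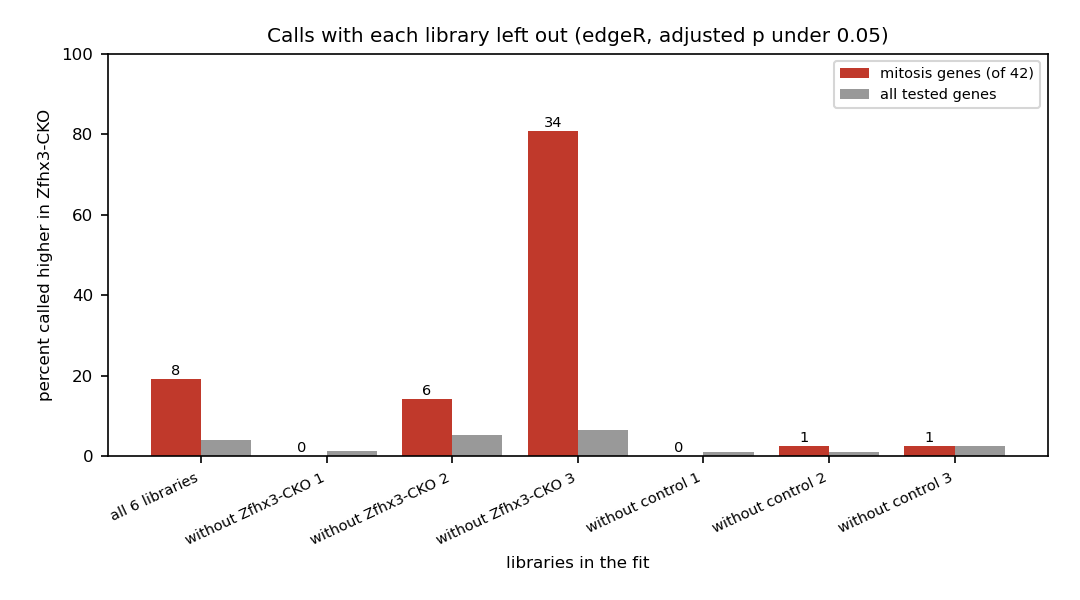
Share of the 42 mitosis genes, and of all tested genes, called higher in Zfhx3-CKO at an adjusted p under 0.05 (percent), with all libraries and with each library left out; the number above a red bar is the count of mitosis genes. The share of the 42 was 0% when Zfhx3-CKO library 1 or control library 1 was left out, and 81.0% when Zfhx3-CKO library 3 was.

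Other genes of the same processes were listed beside the 42. Of these 125 further mitosis genes, all tested, 9 rose and 1 fell. Over all tested genes 3.87% were called higher and 3.48% lower, and several of the counts below rest on few genes. Among 18 condensin, cohesin and separation genes 2 rose, with a median log2 fold change of 0.15. Of these 18 genes 11 had a positive log2 fold change, and the lowest value was -1.11. Ncapd2, a condensin I subunit, had 454, 384 and 407 CPM in the Zfhx3-CKO libraries, against 230.1, 259.8 and 262 CPM in the controls (log2 fold change 0.73, SE 0.0854, adjusted p 0.00296), and Ncaph, another condensin I subunit, also rose (log2 fold change 0.33, SE 0.0721, adjusted p 0.0308). Ncapd2 was highest in Zfhx3-CKO library 1 and at least as high in library 3 as in library 2, whereas library 2 was the highest of its group for all of the 42. Of 38 other spindle and cytokinesis genes 37 were positive, with a median of 0.23, and 4 rose. They were Kifc1, a minus-end motor that focuses spindle poles (log2 fold change 0.71, SE 0.11, adjusted p 0.0100), the centriole duplication gene Stil (log2 fold change 0.44, SE 0.0776, adjusted p 0.0137), Numa1, which anchors spindle poles (log2 fold change 0.34, SE 0.0760, adjusted p 0.0350), and Spag5, a spindle protein gene (log2 fold change 0.41, SE 0.0988, adjusted p 0.0434). Of 32 other G2/M regulators 20 were positive, with a median of 0.04, while 3 rose and 1 fell. Mybl2, which encodes the B-Myb named above, had 60.8, 65.4 and 48.9 CPM in the Zfhx3-CKO libraries, against 41.6, 43.1 and 43.3 CPM in the controls (log2 fold change 0.45, SE 0.11, adjusted p 0.0442). The APC/C activator gene Fzr1 (adjusted p 0.0400) and the nuclear lamina gene Lmnb1 (adjusted p 0.00682) rose, and Bora, a cofactor in Plk1 activation, fell (log2 fold change -0.32, SE 0.0792, adjusted p 0.0488). None of 37 other kinetochore genes passed by edgeR (0 of 37, 8 at an unadjusted p under 0.05 in either direction). At that p 13.5% of tested genes were higher, and the share in both directions was not counted. The median of these 37 genes was 0.14, and 26 of 37 had a positive log2 fold change, where 50.1% of tested genes did.

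The median log2 fold change of DNA replication genes, which act before mitosis, was 0.19, with 34 of 40 positive. At an unadjusted p under 0.05 by edgeR, 13.5% of tested genes were higher, and the share in both directions was not counted. Of the 40 replication genes, 9 met that p in either direction. None of the 40 passed by edgeR after adjustment (0 of 40), and 5 were higher by DESeq2 (5.75% of tested genes). The smallest p was that of Rrm2, a ribonucleotide reductase subunit gene, with 259, 291 and 198 CPM in the Zfhx3-CKO libraries, against 164, 173 and 191 CPM in the controls (log2 fold change 0.50, SE 0.13, adjusted p 0.0560). Their library medians followed the order of the mitosis genes, at 0.26, 0.38 and -0.08 relative to the controls for Zfhx3-CKO libraries 1, 2 and 3.

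Marker lists of cell types also differed between the libraries. Over all tested genes 3.87% were called higher and 3.48% lower. Counts at an unadjusted p under 0.05 take in both directions. By edgeR 13.5% of tested genes were higher at that p, and the share in both directions was not counted. Of 24 tested progenitor markers 5 rose and 0 fell, with library medians of 0.28, 0.40 and 0.03 in Zfhx3-CKO libraries 1, 2 and 3 and a summed level of 5261 to 6762 CPM in the Zfhx3-CKO libraries, against 5348 to 5971 CPM in the control libraries. Of 11 pan-neuronal markers 2 fell and 0 rose, with medians of -0.28, -0.38 and -0.06 and a summed level of 4924 to 5888 CPM in the Zfhx3-CKO libraries, against 5858 to 6385 CPM in the control libraries. Zfhx3-CKO library 3 was thus closest to the controls for mitosis genes, progenitor markers and pan-neuronal markers alike. Of 17 striatal neuron markers 9 fell and 3 rose (summed 2821 to 3251 CPM in the Zfhx3-CKO libraries, against 3806 to 4413 CPM in the control libraries). Of 14 cortical excitatory markers tested 2 rose. All 14 had a positive log2 fold change (median 1.36), and 13 had an unadjusted p under 0.05 by edgeR. Library medians were 1.45, 0.09 and 1.66 in Zfhx3-CKO libraries 1, 2 and 3. The summed level was 337 to 557 CPM in the Zfhx3-CKO libraries, against 249.7 to 273 CPM in the control libraries. Among the Zfhx3-CKO libraries this list was thus lowest in library 2, where the mitosis genes were highest. Its sum there, 337 CPM, was still above all 3 controls. Of 7 medial ganglionic eminence markers 3 rose (summed 429 to 589 CPM in the Zfhx3-CKO libraries, against 366 to 398 CPM in the control libraries). None of 10 endothelial and pericyte markers passed by edgeR (0 of 10, 3 at an unadjusted p under 0.05; summed 307 to 379.6 CPM in the Zfhx3-CKO libraries, against 296 to 309 CPM in the control libraries), and of 8 microglia markers 1 fell (summed 207 to 326 CPM in the Zfhx3-CKO libraries, against 289.9 to 425 CPM in the control libraries). Erythroid genes were summed at 705 to 2550.5 CPM in the Zfhx3-CKO libraries, against 709.5 to 1079 CPM in the control libraries, highest in Zfhx3-CKO library 2, and 0 of 5 tested passed by edgeR (0 at an unadjusted p under 0.05). Oligodendrocyte precursor markers were summed at 64.8 to 101 CPM in the Zfhx3-CKO libraries, against 67.9 to 72.6 CPM in the control libraries, with 0 of 4 passing by edgeR (0 at an unadjusted p under 0.05). No list had a marker at 0 in all 6 libraries, and the part of these cell types in the mitosis result was not tested.

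**Figure D5:**
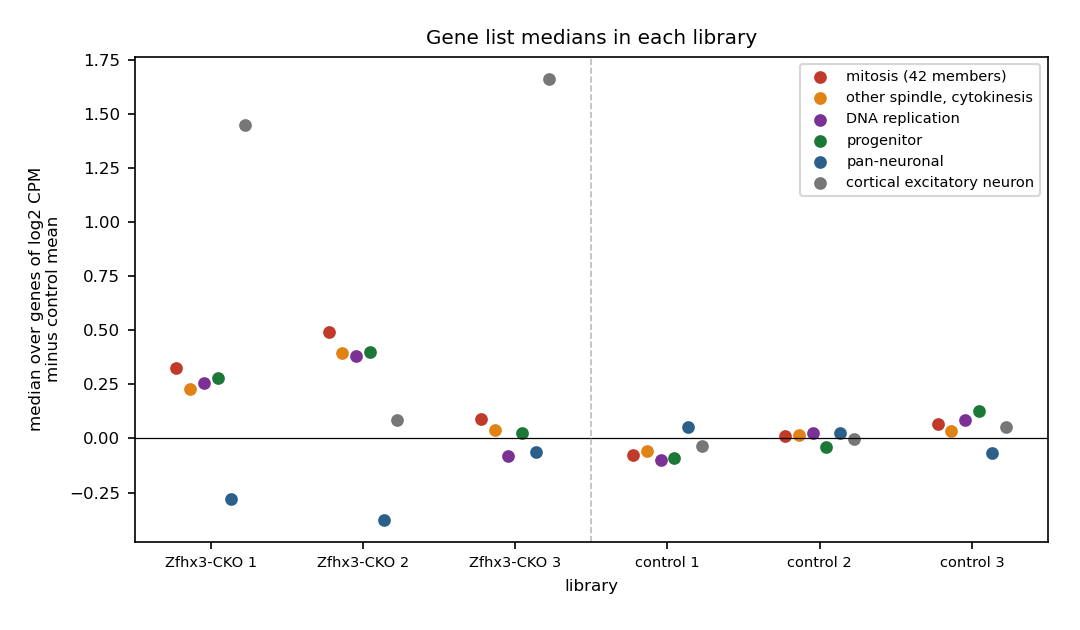
Median over the genes of each list of log2 CPM minus the control mean (y axis) in each library (x axis), for the 42 mitosis genes and 5 other lists. The mitosis, replication and progenitor lists stand highest in Zfhx3-CKO library 2 and near 0 in Zfhx3-CKO library 3, while the cortical excitatory list stands at 1.45 and 1.66 in Zfhx3-CKO libraries 1 and 3.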

How the data were processed

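LGE RNA-seq of 3 Zfhx3-CKO and 3 control libraries was analysed from the processed tables. Per the labels' protocols, 1 ug of total RNA went into a TruSeq RNA kit, a type that keeps no strand. The tools named in the submitters' processing notes are edgeR, StringTie, HISAT2 and bcl2fastq 2.17.1.14, with mm10 and GRCm38.p4 as builds. The deposited counts are whole reads or fragments per gene, not normalised, per the file headers. The deposited FPKM values were scaled by the authors to gene length and library total, per the file headers. The authors' deposited log2 fold changes and p-values come from a test that the file headers do not name. Columns of the full table were matched to libraries through the number in each name and whether it held a control word; values were identical to those of the titled columns of a shorter table for its 3726 genes.

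Members were matched by exact gene name. The members and the other lists were chosen with earlier results of these data known. Counts were tested over all genes with edgeR 4.0.16 (quasi-likelihood, TMM factors 0.992 to 1.008, filterByExpr with a minimum count of 10, Benjamini-Hochberg at 0.05) in R 4.3.3, with group as the only term. The SE was taken from the F statistic, and CPM is scaled by TMM. The fit was tried on simulated counts first. Members that passed are given with every library, as are the 2 other members with the smallest p of each role. Of each other list at most 4 genes with the smallest p are named, with or without library values. Alternatives were DESeq2 1.42.0, RLE factors, library totals, no filter, a floor of 5 CPM reached by 3 or more libraries, single libraries left out, Zfhx3-CKO libraries 1 and 3 left out, X and Y genes left out, limma-trend (limma 3.58.1) on log2(FPKM + 1) and log2(FPKM + 0.1) (genes reaching 1 FPKM in 3 libraries), removal of GC and length trends (GENCODE vM21 transcripts, 29552 of 29659 genes matched, which also gave the exon overlaps), and a replicate block. Same-numbered libraries did not deviate together (r = -0.05, -0.09 and -0.29). With 3 libraries in each group, these correlations cannot exclude a pairing by number. Replicate libraries differed by more than sampling noise, so each was kept. Chi-square per gene was 3.32 to 9.54 between control libraries and 12.7 to 29.3 between Zfhx3-CKO libraries. Across the groups it was 27.0 to 37.3, a range that holds the value for Zfhx3-CKO libraries 2 and 3 (29.3). Promoters are from RefSeq (GRCm38.p6), and 34 of 42 members matched by symbol.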

Additional observations from a re-analysis of the deposited data

How the results depend on the processing

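The members' median log2 fold change was positive under all 17 alternatives, from 0.22 to 0.49; the last is the fit without Zfhx3-CKO libraries 1 and 3, in which the lone library is assumed to vary like the controls. Single genes changed sign only without Zfhx3-CKO library 2, and across single omissions Kif11 ran from -0.10 to 0.45 and Ect2 from -0.034 to 0.20; the cause was not tested. Of the 42 members 8 rose in the chosen fit (3.87% of tested genes). With DESeq2 15 did (5.75% of tested genes), and with all genes kept 18 did (3.62%). On log2(FPKM + 1) 2 rose and on log2(FPKM + 0.1) 1, both near the share of all tested genes there (3.33% and 3.12%). When single libraries were left out 0 to 34 rose (0.913% to 6.47% of tested genes). RLE factors, library totals, the strict filter, leaving out X and Y genes, and taking out GC and length trends gave 7 to 11 (3.75% to 4.77%). With the replicate block, 1 member rose, as did 176 genes in all, against 136 lower, and 2 of the other mitosis genes. Whether the numbers pair the libraries could not be settled. Over all genes, 640 rose in the chosen fit, against 1011 with DESeq2, 1075 with no filter and 156 to 1082 with single libraries left out; 576 fell, against 131 to 1014. The other mitosis genes rose 9 times, against 18 with DESeq2, 19 with no filter, 54 without Zfhx3-CKO libraries 1 and 3 and 2 to 46 with single libraries left out. Replication genes rose 0 times, against 5 with DESeq2, 6 with no filter, 2 with GC and length trends removed, 19 without Zfhx3-CKO libraries 1 and 3 and 0 to 20 with single libraries left out. The members differed by at most 1.53-fold, and each group held 3 libraries of a single sex; exons of 12 members overlap another gene, so their unstranded counts can hold its reads.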
